A study of Rattus norvegicus with 13 samples.

Results

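The mitochondrial ribosomal proteins were examined in left ventricle muscle of rats labelled ADBR3 overexpressing and of wild-type (WT) rats. Members were all probes whose gene name in the scanner files begins with Mrpl or Mrps and continues with a digit, which selected 82 of the 30367 probes on the array. They stand for 71 genes, of which 42 are named for the large subunit (51 probes) and 29 for the small subunit (31 probes). Of the 82 probes, 79 passed the filter on dim probes and were tested, 49 of the large and 30 of the small subunit.

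RNA of male rats aged 45 weeks was hybridized to 13 single-dye Agilent arrays, 6 with WT and 7 with ADBR3 overexpressing tissue. The arrays come from 4 WT rats, called WT 1, 3, 4 and 6 by heart number, and 5 ADBR3 overexpressing rats, called ADBR3 1, 3, 5, 6 and 7. Hearts 1 and 2 of each group are repeat labelings of 1 rat, and WT heart 5 and ADBR3 heart 4 are repeat hybridizations whose partner the labels do not name. The strain, the introduced sequence, its promoter and the tissue that expresses it are not given in the sources used here. No treatment is labelled in either group.

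The ribosome of mitochondria translates the few proteins encoded in mitochondrial DNA, all of them hydrophobic core subunits of the respiratory chain and ATP synthase. Its RNAs are transcribed inside the organelle, whereas every one of its proteins is encoded in the nucleus, made on cytosolic ribosomes and imported. About the ribosomal RNA lies a set of proteins inherited from the bacterial ancestor and a second set added during the evolution of mitochondria. Heart muscle depends on oxidative metabolism and is rich in mitochondria, and inherited defects of several of these proteins in people, among them MRPL3, MRPL44 and MRPS22, include cardiomyopathy.

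The promoters of these genes are shown first, because all members are encoded in the nucleus. Some of them also start near a neighbour that is transcribed in the opposite direction. All 71 member genes matched a gene of the RefSeq table (assembly GRCr8) by accession or symbol, and the promoter table held 58 start sites of 56 of them. Mrpl46 and Mrps11, 1 gene of each subunit, are transcribed away from each other from starts 234 bases apart. The 250 bases before the start of Mrps11 (GRCr8, chr1:142117014-142117263, plus strand) are printed with the stretch between both starts in capitals. The 250 bases before the start of Mrps27 (GRCr8, chr2:32473954-32474203, plus strand) show an ETS match in capitals, and that gene lies 91 bases from Ptcd2, which encodes another RNA-binding protein of mitochondria. The 250 bases before the start of Mrpl18 (GRCr8, chr1:50384702-50384951, plus strand), the member whose rats differed most among themselves apart from Mrpl43, show a CCAAT box in capitals, read on the minus strand.
Mrpl46 and Mrps11: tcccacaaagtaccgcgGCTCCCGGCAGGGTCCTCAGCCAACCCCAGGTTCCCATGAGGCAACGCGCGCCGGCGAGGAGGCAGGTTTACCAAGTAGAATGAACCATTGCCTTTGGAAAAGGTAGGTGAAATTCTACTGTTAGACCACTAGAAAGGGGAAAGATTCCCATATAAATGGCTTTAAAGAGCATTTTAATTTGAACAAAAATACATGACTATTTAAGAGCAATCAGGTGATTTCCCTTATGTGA
Mrps27: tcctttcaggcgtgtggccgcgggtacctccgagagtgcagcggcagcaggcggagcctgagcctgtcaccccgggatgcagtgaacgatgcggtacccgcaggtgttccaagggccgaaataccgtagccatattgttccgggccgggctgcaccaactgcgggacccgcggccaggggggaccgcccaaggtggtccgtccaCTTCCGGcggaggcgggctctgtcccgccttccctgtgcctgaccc
Mrpl18: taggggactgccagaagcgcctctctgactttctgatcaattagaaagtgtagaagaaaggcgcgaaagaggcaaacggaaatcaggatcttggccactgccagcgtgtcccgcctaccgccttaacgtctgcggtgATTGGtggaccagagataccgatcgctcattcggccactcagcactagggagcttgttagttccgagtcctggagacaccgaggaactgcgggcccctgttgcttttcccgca

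Of 56 member genes, 17 (30.4%) had a protein-coding neighbour in head-to-head orientation with starts at most 1000 bases apart, against 1373 of 19005 protein-coding genes (7.22%). In the window from 250 bases before to 50 after the start, both strands searched, the ETS letters CCGGAAG were found in 18 of 58 member promoters (31%) and in 2346 of 21851 protein-coding promoters. The YY1 letters AAGATGGCG were found in 9 member promoters (15.5%) against 2.07% of all, the match of Mrps27 lying after its start. For the NRF1 letters GCGCANGCG the shares were 19% (11 promoters) and 7.62%. At least 1 of these 3 motifs was present in 31 of 58 member promoters (53.4%) and in 18.1% of all, and in 0 member promoters did an ETS and a YY1 match share bases. The GC box GGGCGG was in 50% against 41.8%, and CCAAT in 44.8% against 38%. The ERR letters TCAAGGTCA were found in 0 member promoters and in 0.366% of all. Members held a median of 18 CpG dinucleotides in this window against 11, at a median GC content of 55.7% against 55%. These shares describe letters in a window, with no test of binding.

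**Figure D1:**
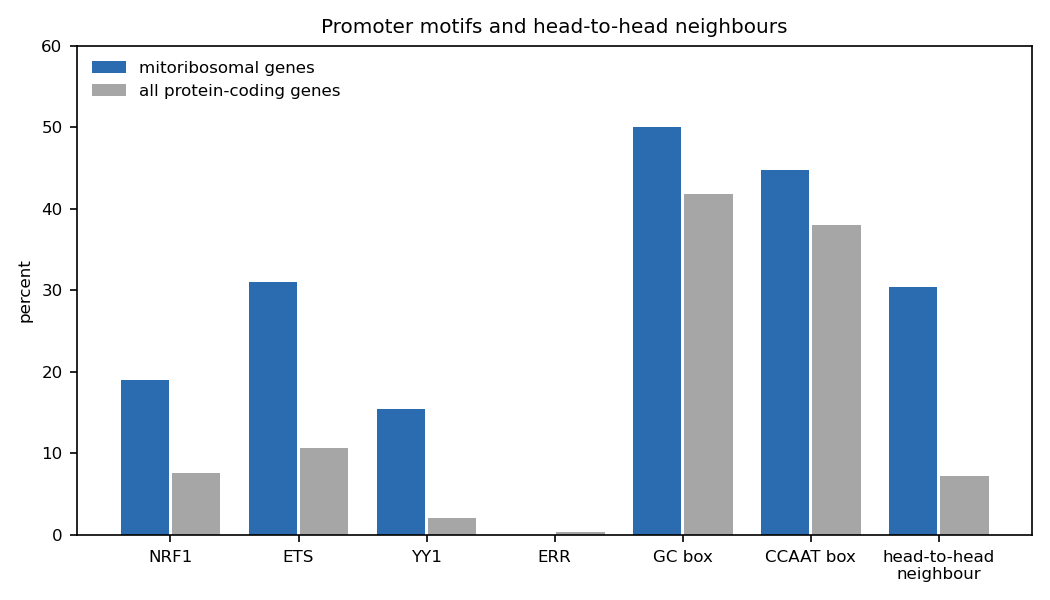
Bars give the percent of promoters that hold each motif (58 member promoters, 21851 of all protein-coding genes) and, at the right, the percent of genes with a head-to-head neighbour within 1000 bases (56 and 19005 genes). Member bars stand above the grey bars for NRF1, ETS, YY1 and head-to-head neighbours, and the ERR bars are 0 and 0.366%.

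On all 13 arrays the 75th percentile of brightness lay between 760.4 and 908.7. The share of spots well above background ran from 55.2%, on WT heart 2, to 67.8%. Of 6 WT arrays 0 and of 7 ADBR3 arrays 1 had a signal well above background at the Adrb3 probe, and it need not read the introduced sequence. Of 9 ventricular cardiomyocyte markers, 9 were above background in all rats, and of 3 hepatocyte markers Alb and Apoa2 were on no array. The summed log2 level of 4 atrial markers was 7.68 to 8.06 in WT and 7.71 to 8.72 in ADBR3 rats, and its part in the results was not tested. In whole tissue, fewer cells of a type and less RNA per cell cannot be told apart.

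Nearly all members gave a clear signal in every heart. Of the 79 tested member probes, 78 (98.7%) were well above background on all 13 arrays, against 83.5% of the 17587 tested probes, and 0 member spots were saturated. The remaining 3 probes were not tested. The only probe of Mrps28, a small subunit protein, exceeded background clearly on 2 of 6 WT arrays and on 0 of 7 ADBR3 arrays. One probe each of Mrpl30 and Mrpl50 was above it on 0 and 1, and on 2 and 3 arrays, while the second probe of both genes was tested. Lower-case spellings keep mrpl9, mrpl11 and mrpl24 outside the rule, and their differences were 0.09, 0.03 and -0.04.

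No member changed between the groups past the threshold (0 higher and 0 lower; limma, Benjamini-Hochberg adjusted p under 0.05 over all 17587 probes). Over all probes 0.00569% were higher past it, a single probe for Ak1, and 0% lower. The smallest adjusted p of a member was 0.454. At an unadjusted p under 0.05, 2 members were higher and 3 lower, where 3.12% of all probes were higher and 6.08% lower. The rats of both groups overlapped at every tested member probe, 0 being fully apart, against 1.23% of all probes apart with ADBR3 higher and 2.21% with ADBR3 lower.

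The intervals around these differences were narrow. The 95% interval of the difference lay inside -0.5 to 0.5 on the log2 scale, which is within 1.41-fold, at 77 of 79 member probes (97.5%) and at 77.9% of all tested probes. The exceptions were Mrpl18 and Mrpl43. The median half-width of the interval was 0.134. Differences over 0.1 in size were found at 11 member probes (13.9%), against 41.9% of all probes, and over 0.2 at 3 (3.8%) against 18.6%. The median SD between rats of a group was 0.0777 at members and 0.135 at all tested probes. It was 0.067 at cytosolic ribosomal proteins and 0.073 at respiratory chain and ATP synthase subunits. Their intervals lay inside -0.5 to 0.5 at 96.25% and 93.91% of probes, so narrow intervals were not particular to the members.

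Each level is a log2 processed signal from which the array's own 75th percentile was subtracted. Levels compare rats at 1 probe, never probes with each other. Averaged over its 49 probes, the large subunit measured 2.34, 2.32, 2.31 and 2.33 in WT rats 1, 3, 4 and 6 and 2.28, 2.35, 2.37, 2.32 and 2.36 in ADBR3 rats 1, 3, 5, 6 and 7. The ADBR3 rats thus lay on both sides of the WT rats. The means were 2.33 ± 0.0137 (SD, n = 4) and 2.34 ± 0.0368 (SD, n = 5). They include Mrpl43, at which ADBR3 rat 6 read -0.54 and the other ADBR3 rats -3.62 to -3.23. That probe raises the large subunit mean of ADBR3 rat 6, and means without it were not computed. The small subunit, over 30 probes, measured 1.51, 1.52, 1.54 and 1.56 in WT and 1.49, 1.54, 1.55, 1.46 and 1.56 in ADBR3 rats, which also overlapped. Its lowest rats were ADBR3 6 and ADBR3 1. Within slides 1, 3 and 4, which held arrays of both groups, the large subunit mean differed by -0.06, 0.05 and 0.04 (ADBR3 minus WT) and the small one by -0.03, 0.02 and -0.03. On slide 4, which held ADBR3 rat 6, Mrpl43 differed by 0.987 and enters the large subunit value. Values within slides or scan days count arrays, not rats, and include both labelings of a rat and the repeat hybridizations. The only WT array on slide 4 was the repeat hybridization WT heart 5. It lay closest to WT rat 4, the only WT rat on slide 3. Slide 2 held only WT arrays and slide 5 only ADBR3 arrays. With the repeat hybridizations left out, as in the main comparison, only slides 1 and 3 held both groups. Slide and group were thus largely confounded. The first scan day held 1 WT and 3 ADBR3 arrays.

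**Figure D2:**
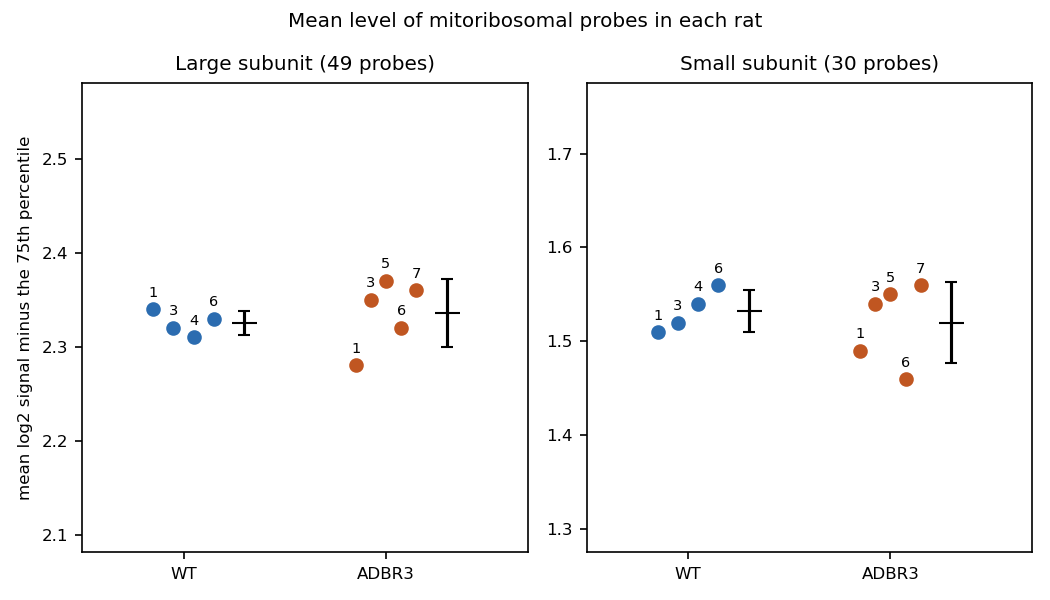
Each point is the mean log2 level (signal minus the array's 75th percentile, vertical axis) of the tested probes of a subunit in 1 rat, numbered by heart, and bars give the group mean and SD (4 WT, 5 ADBR3 rats). The ADBR3 rats spread from 2.28 to 2.37 for the large and 1.46 to 1.56 for the small subunit, around the WT rats.

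The differences, always ADBR3 minus WT, were spread about 0 in both subunits. In the large subunit 26 probes were higher and 23 lower with a median of 0.01, and in the small subunit 13 were higher and 17 lower with a median of -0.01. Over all tested probes the median was -0.01 and 46.5% were higher. With each array scaled to its median in place of the 75th percentile, 59 of 79 members were higher and 20 lower, and 60.7% of all probes were higher. This scaling moves every probe of an array alike, and the large subunit median minus that of all probes was 0.0150 under both. With normexp background correction and the 75th percentile, 28 of 49 large and 12 of 30 small subunit probes were higher.

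**Figure D3:**
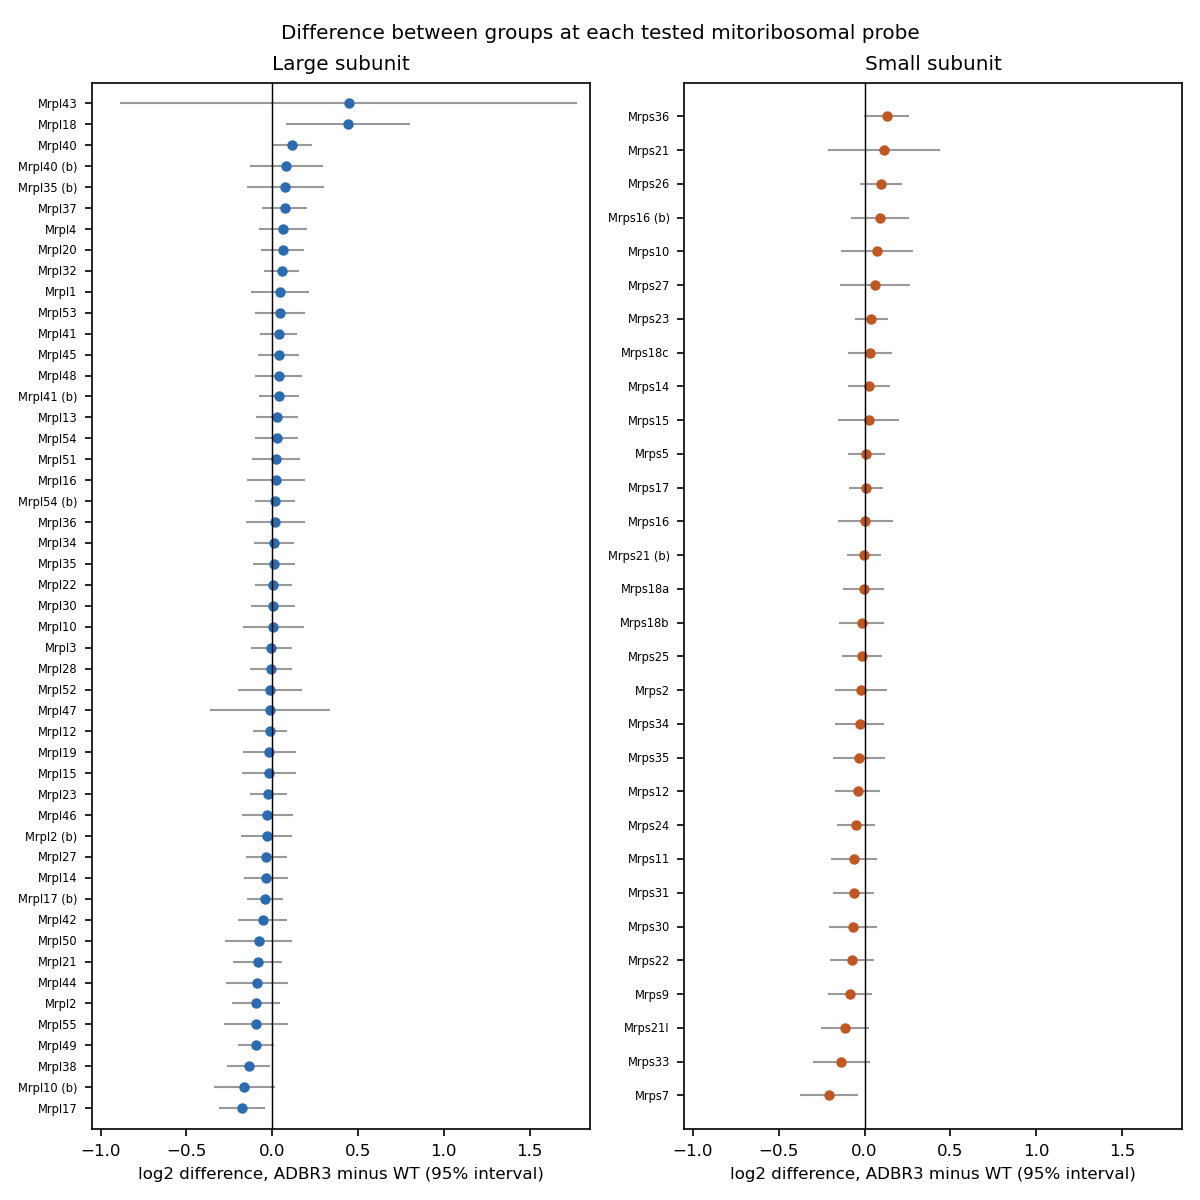
Points give the log2 difference between groups (horizontal axis, ADBR3 minus WT) at each of 49 large and 30 small subunit probes, ordered by size, with the 95% interval as a line; where a gene has several probes, (b) marks the brightest. Most intervals are short and cross 0, and only those of Mrpl43 and Mrpl18 reach beyond 0.5.

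The proteins of bacterial origin and those added in mitochondria each split evenly in direction. Of 46 probes for proteins with a bacterial counterpart, 23 were higher and 23 lower (median 0.00), and of 31 for added proteins 15 were higher and 16 lower (median -0.01). Among the added proteins, 12 of 19 large subunit probes were higher (median 0.03) and 3 of 12 small subunit probes (median -0.02). That contrast between subunits was not tested. It goes by gene name, and the lower small subunit names include Mrps30 and Mrps18a, which sit in the large subunit.

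Among large subunit proteins of bacterial origin, Mrpl18 had the largest difference in size. Its protein belongs to the family that binds 5S ribosomal RNA in bacteria, and it has been linked to the entry of that RNA into mitochondria. The level was 3.12, 2.48, 2.51 and 2.55 in WT rats 1, 3, 4 and 6 and 3.14, 3.13, 2.72, 3.19 and 3.32 in ADBR3 rats 1, 3, 5, 6 and 7. Thus 3 WT rats lay low and 4 ADBR3 rats high, while WT rat 1 lay with the high rats and ADBR3 rat 5 near the low ones. The repeat arrays kept these levels: both labelings of WT rat 1 read 3.15 and 3.09, and both of ADBR3 rat 1 read 3.09 and 3.2. Group means were 2.66 ± 0.306 (SD, n = 4) and 3.10 ± 0.228 (SD, n = 5). The difference was 0.44 ± 0.160 (SE; limma, unadjusted p = 0.0223, Benjamini-Hochberg adjusted p = 0.477), with a 95% interval of 0.08 to 0.80. It was 0.59 without WT rat 1 (limma, adjusted p = 0.271). Within slides 1, 3 and 4, which held both groups, the difference was 0.16, 0.81 and 0.52, and within the 2 scan days 0.71 and 0.29. These values count arrays: both labelings of WT rat 1 enter slide 1 and the second scan day, and slide 4 has WT heart 5 alone for WT. With slide as a block it was 0.44 (limma, adjusted p = 0.993), and with scan day 0.40 (limma, adjusted p = 0.627).

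Tcp1, a subunit of the cytosolic chaperonin, is the head-to-head neighbour of Mrpl18 with its start 425 bases away. At its brighter probe, Tcp1 measured 3.5, 3.53, 3.55 and 3.61 in WT and 3.59, 3.66, 3.71, 3.68 and 3.71 in ADBR3 rats. WT rat 1 was the lowest rat there, not a high one as for Mrpl18. The difference was 0.12 ± 0.0479 (SE; limma, adjusted p = 0.503), and at its other probe -0.00 (limma, adjusted p = 0.999). Of the 17 head-to-head genes, 13 had a neighbour with a tested probe, and 0 of these neighbours passed the threshold.

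Mrpl17, a protein beside the exit of the peptide tunnel, held the smallest adjusted p among members, at its dimmer probe (rn4, chr1:163555095-163555154, minus strand). This probe, the dimmer probe of Mrpl40 and their values were chosen after the values were seen. Levels were -0.01, 0.11, -0.14 and 0.04 in WT and -0.25, -0.21, -0.14, -0.15 and -0.13 in ADBR3 rats. WT rat 4 lay among the ADBR3 rats, and the other WT rats above them. The difference was -0.18 ± 0.0596 (SE; limma, adjusted p = 0.454). At its brighter probe it was -0.04 ± 0.0461 (SE; limma, adjusted p = 0.794).

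Mrpl10 and Mrpl12 form the stalk of the large subunit that recruits translation factors. Mrpl12, which has also been reported to bind the mitochondrial RNA polymerase, was among the steadiest members. WT rats averaged 5.56 ± 0.0320 (SD, n = 4), and ADBR3 rats 5.55 ± 0.0401 (SD, n = 5). Its interval ran from -0.11 to 0.08. Mrpl10 measured 5.24, 5.10, 5.23 and 5.39 in WT and 5.10, 4.87, 5.16, 5.13 and 5.11 in ADBR3 rats at its brightest probe, a difference of -0.16 ± 0.0791 (SE; limma, adjusted p = 0.556). ADBR3 rat 3 lay apart from the rest of its group there. Its other probe gave 0.01 (limma, adjusted p = 0.988), so the direction was not the same at both, and the other probe changed sign under 7 of 24 alternatives.

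Mrpl3, which lies near the peptidyl transferase centre, differed by -0.01 with an interval of -0.12 to 0.11. Mrpl35 measured 2.27, 1.97, 2.38 and 2.45 in WT and 2.24 to 2.42 in ADBR3 rats, with WT rat 3 the lowest of all rats. Its difference was 0.08 ± 0.0992 (SE; limma, adjusted p = 0.824). Mrpl55 was 2.71, 2.72, 2.69 and 2.97 in WT, of which rat 6 stood above the others, and 2.49 to 2.80 in ADBR3 rats. Its difference was -0.09 (limma, adjusted p = 0.735). Mrpl47, of the family at the tunnel exit, varied between rats of both groups, from -3.08 to -2.58 in WT and from -3.18 to -2.48 in ADBR3 rats.

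Among the large subunit proteins added in mitochondria, Mrpl38, Mrpl40 and Mrpl46 belong to the central protuberance, where the large subunit meets the small one. Mrpl38 measured 0.39, 0.43, 0.34 and 0.45 in WT and 0.25, 0.30, 0.38, 0.17 and 0.22 in ADBR3 rats. Only ADBR3 rat 5 reached the WT range. The difference was -0.14 ± 0.0558 (SE; limma, adjusted p = 0.525), with the same sign under all 25 alternatives. Mrpl40 pointed the other way. Its dimmer probe measured 2.08, 2.01, 2.14 and 2.10 in WT and 2.18, 2.23, 2.28, 2.19 and 2.12 in ADBR3 rats, a difference of 0.12 ± 0.0514 (SE; limma, adjusted p = 0.542), and its brightest probe differed by 0.08 ± 0.0936 (SE). Mrpl46 differed by -0.03, and its head-to-head neighbour Mrps11 by -0.06 (limma, adjusted p = 0.917 and 0.764).

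Mrpl43 showed the widest spread of all members through a single rat. Its only probe lies on 1 spot per array (rn4, chr1:250072915-250072974, minus strand), and the whole probe is shown because 1 rat was many times brighter at it.
Mrpl43 probe: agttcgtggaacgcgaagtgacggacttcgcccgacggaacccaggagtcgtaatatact
It measured -3.37, -3.06, -3.49 and -3.37 in WT and -3.49, -3.62, -3.50 and -3.23 in ADBR3 rats 1, 3, 5 and 7, but -0.54 in ADBR3 rat 6. The 4 other ADBR3 rats lay in or next to the WT range. The difference of 0.45 ± 0.589 (SE; limma, adjusted p = 0.828) became -0.14 without ADBR3 rat 6 (limma, adjusted p = 0.754). No array is labelled as a repeat of rat 6. The repeat hybridization ADBR3 heart 4, whose partner is not named and which lay closest to rat 3, read -3.72. A spot fault was not tested.

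**Figure D4:**
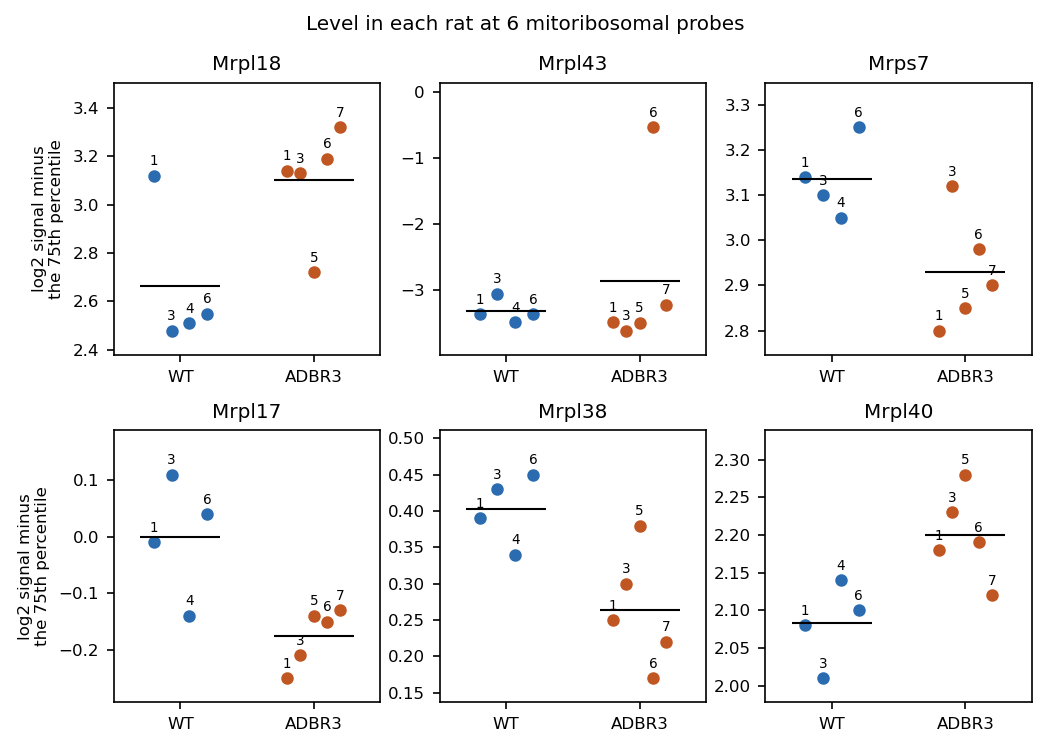
Points give the log2 level (signal minus the array's 75th percentile, vertical axis, a separate scale in each panel) of each rat, numbered by heart, and lines the group means; Mrpl17 and Mrpl40 are shown at their dimmer probes. WT rat 1 sits with the high rats at Mrpl18, ADBR3 rat 6 alone at -0.54 for Mrpl43, and the groups overlap in every panel.

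The other added proteins of the large subunit differed little. Mrpl44, a relative of ribonuclease III, differed by -0.09 ± 0.0794 (SE), Mrpl49 by -0.10 ± 0.0467 (SE) and Mrpl37 by 0.07 ± 0.0581 (SE), none past the threshold (limma, adjusted p = 0.737, 0.556 and 0.706). For Mrpl49 the WT rats lay between 0.55 and 0.67 and the ADBR3 rats between 0.46 and 0.55. Mrps30 and Mrps18a carry small subunit names but sit in the large subunit of the assembled ribosome. They differed by -0.07 ± 0.0621 and -0.01 ± 0.0527 (SE; limma, adjusted p = 0.748 and 0.982).

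Mrpl41 and Mrpl54 allow a check by nearly the same sequence, since their probes overlap. The Mrpl41 probes (rn4, chr3:5120436-5120495 and chr3:5120420-5120479, minus strand) share 44 bases with 1 difference, C18T in the 30 bases shown, counted from 1 at the 5′ end with the first probe's base first. The Mrpl54 probes (rn4, chr7:9938902-9938960 and chr7:9938921-9938980, plus strand) share 41 bases with 3 differences, of which G14C and A26G lie in the 30 bases shown. Differing bases are in capitals.
Mrpl41 first probe: ctgttccaattgtatccCaagaatttccca
Mrpl41 second probe: ctgttccaattgtatccTaagaatttccca
Mrpl54 first probe: tctggcgtcacaaGaggctgagcaaAaaca
Mrpl54 second probe: tctggcgtcacaaCaggctgagcaaGaaca
The group differences at the pair were 0.04 and 0.04 for Mrpl41, whose protein has been reported to bind BCL2, and 0.03 and 0.02 for Mrpl54. The gap between the probes of a gene was 0.00165 for Mrpl41 and 0.00781 for Mrpl54. Over the 9 genes with several tested probes the median gap was 0.0663, and it was widest for Mrpl10, at 0.169, and next for Mrpl17, at 0.137. The sign differed between probes for Mrpl10 and Mrps21. Mrps21 gave -0.00 at its brightest probe, with an SD between rats of 0.0381, and 0.11 ± 0.145 (SE) at the other, with an SD of 0.238.

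In the small subunit Mrps7, of the head domain that holds the messenger and transfer RNAs, had the largest difference. The level was 3.14, 3.10, 3.05 and 3.25 in WT and 2.80, 3.12, 2.85, 2.98 and 2.90 in ADBR3 rats. ADBR3 rat 3 lay within the WT range and the other 4 below it, but the labelings of ADBR3 rat 1 read 3.04 and 2.56, and only the second of these lay far below the WT rats. Means were 3.14 ± 0.0838 (SD, n = 4) and 2.93 ± 0.124 (SD, n = 5), and the difference was -0.21 ± 0.0743 (SE; limma, adjusted p = 0.470), with a 95% interval of -0.38 to -0.04. Counted by arrays, repeats included, it was -0.14, -0.15 and -0.17 within slides 1, 3 and 4. With slide as a block it was -0.06 (limma, adjusted p = 0.993). Gga3, 269 bases from the Mrps7 start, differed by 0.01.

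The other small subunit proteins of bacterial origin differed by less. Mrps9 measured 1.66, 1.62, 1.48 and 1.57 in WT and 1.51, 1.54, 1.53, 1.38 and 1.53 in ADBR3 rats, a difference of -0.08 ± 0.0569 (SE; limma, adjusted p = 0.650). Mrps16 and Mrps10 differed by 0.09 and 0.07 (limma, adjusted p = 0.714 and 0.821), and Mrps18c by 0.03 (limma, adjusted p = 0.887). Mrps21l, a gene named for its likeness to Mrps21, was assigned neither to the bacterial nor to the added proteins. Its level was 0.67 to 0.96 in WT and 0.66 to 0.79 in ADBR3 rats, a difference of -0.12 ± 0.0626 (SE; limma, adjusted p = 0.596).

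Of the small subunit proteins added in mitochondria, Mrps33 measured 2.43, 2.38, 2.53 and 2.57 in WT and 2.35, 2.44, 2.37, 2.14 and 2.41 in ADBR3 rats. ADBR3 rat 6 was the lowest of all, and the difference was -0.13 ± 0.0737 (SE; limma, adjusted p = 0.596). Mrps26 measured 3.18, 3.25, 3.35 and 3.26 in WT and 3.28, 3.39, 3.37, 3.31 and 3.43 in ADBR3 rats, 0.10 ± 0.0537 apart (SE; limma, adjusted p = 0.600). Mrps22 differed by -0.07, Mrps27, a pentatricopeptide repeat protein that binds RNA, by 0.06, and Mrps18b by -0.02 (limma, adjusted p = 0.691, 0.848 and 0.950).

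Mrps36 is named for the small subunit, but RefSeq calls the gene Kgd4, after its protein's place in the 2-oxoglutarate dehydrogenase complex of the citric acid cycle. It measured 4.29, 4.21, 4.09 and 4.18 in WT and 4.26, 4.39, 4.30, 4.26 and 4.40 in ADBR3 rats. WT rat 1 reached the ADBR3 range. Its difference of 0.13 ± 0.0575 (SE; limma, adjusted p = 0.545) was the highest among small subunit names, and the interval ran from -0.00 to 0.26.

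The repeat arrays set the technical scale of these values. Over the tested members, the log2 difference between both labelings of a rat had an SD of 0.118 and 0.126 in the 2 rats with repeats, or 0.0779 and 0.109 without Mrpl43. Between different rats of a group the median SD over 23 pairs of arrays was 0.145 (0.135 without Mrpl43), and between arrays of different groups, over 42 pairs, it was 0.147 (0.140). Arrays of different groups thus lay about as far apart at these genes as arrays of different rats in 1 group. The pairs between groups include the repeat hybridizations, which the pairs within a group leave out. Both labelings of a rat enter as separate arrays.

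Proteins that work with the mitochondrial ribosome gave the same count of 0 past the threshold in every list (limma). Of the 7 ribosomal proteins under other names, 5 were higher and 2 lower. Dap3, a GTP-binding small subunit protein, measured 0.12 to 0.24 in WT and -0.05 to 0.12 in ADBR3 rats, a difference of -0.11 ± 0.0530 (SE; limma, adjusted p = 0.556). Ptcd3, a small subunit pentatricopeptide repeat protein, differed by 0.10 (limma, adjusted p = 0.706).

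For mitochondrial translation factors 11 probes were higher and 8 lower, with Mrrf, the ribosome recycling factor, at 0.20 ± 0.118 (SE) and Tsfm, the exchange factor of the elongation factor Tu, at -0.20 ± 0.129 (SE; limma, adjusted p = 0.610 and 0.637). For the mitochondrial aminoacyl-tRNA synthetases 10 were higher and 11 lower. At an unadjusted p under 0.05 (limma), 2 of 21 probes were higher, where 3.12% of all probes were. Aars2, which charges alanine, measured -4.34, -4.19, -4.13 and -4.12 in WT and -3.94, -3.79, -3.76, -4.07 and -4.05 in ADBR3 rats. Its groups did not overlap, as at 1.23% of all probes with ADBR3 higher. Aars2 is named for the smallest p of its list, and its difference of 0.27 ± 0.0836 (SE) did not pass the threshold (limma, adjusted p = 0.417). Sars2, for serine, differed by 0.18 ± 0.0736 (SE; limma, adjusted p = 0.522).

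For ribosome assembly and rRNA modification 14 probes were higher and 17 lower. Trub2, a pseudouridine synthase, has 3 tested probes, which differed by -0.17 ± 0.0688, -0.16 ± 0.0659 and -0.25 ± 0.151 (SE; limma, adjusted p = 0.525, 0.525 and 0.617). At the third probe ADBR3 rat 6 measured 1.92 and the other ADBR3 rats 2.5 to 2.78. Of 4 genes of mitochondrial transcription, Tefm differed by -0.09 and Tfb2m by 0.07 (limma, adjusted p = 0.710 and 0.783), and Tfam, which packages mitochondrial DNA, by 0.00 (limma, adjusted p = 0.998). Among 11 probes of nuclear regulators 3 were higher and 8 lower, with Ppargc1b at -0.14 (limma, adjusted p = 0.696). Both probes of Nrf1 gave opposite signs, 0.13 and -0.07 (limma, adjusted p = 0.692 and 0.824).

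The cytosolic ribosome and the respiratory chain were set beside the mitochondrial ribosome. Of 160 probes of cytosolic ribosomal proteins, 75 were higher and 85 lower (median -0.00). Of 115 probes for subunits of the respiratory chain and ATP synthase, whose mitochondrial subunits this ribosome makes, 32 were higher and 83 lower (median -0.03), and 0 in either group passed the threshold (limma). With median scaling, under which 60.7% of all probes were higher, these counts were 123 and 37, and 62 and 53. The difference between these groups was not tested.

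**Figure D5:**
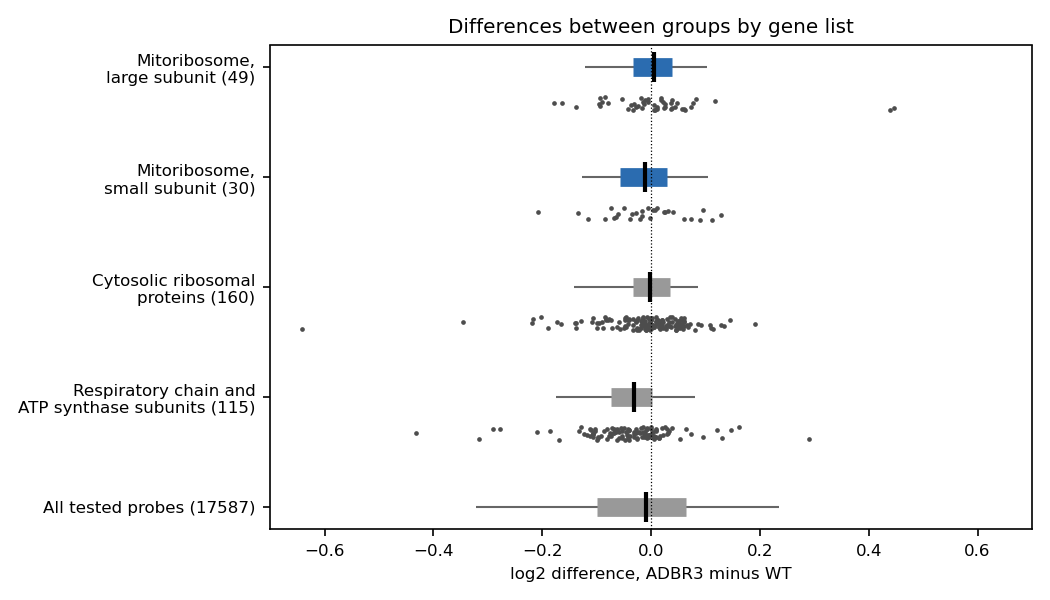
For each list, the bar spans the middle of the log2 differences (25th to 75th percentile, horizontal axis, ADBR3 minus WT), the thin line the 5th to 95th percentile and the tick the median; dots are single probes, not drawn for all 17587. The medians are 0.01 for the large and -0.01 for the small subunit, and -0.03 for the respiratory chain and ATP synthase.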

How the data were processed

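Spot intensity values and quality flags were deposited by the authors as scanner output. The software was Agilent Feature Extraction 10.7.1.1 and the design 028279 (build rn4), per the file headers. Their processed signal is background-subtracted and spatially detrended, with no scaling between arrays, per the file headers. The deposited series table of natural log values, in which the authors' scaling is not given, served as an alternative. Against the natural log of the scanner's median spot signal, not the processed signal, its values had slopes of 0.986 to 1.064 (column medians 5.695 to 5.73).

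Log2 of the processed signal minus the array's 75th percentile was computed for 58717 spots that are not controls, and spots of a probe were averaged without those marked as outliers where another remained. A probe was kept when at least 0.5 of its spots were above background in at least 4 of 9 rats. Labelings of a rat were averaged, and the repeat hybridizations were left out. limma 3.58.1 (R 4.3.3, data.table, version 1.17.8) compared 4 with 5 rats over 17587 probes, fitting group alone, with Benjamini-Hochberg adjustment at 0.05, and was tested on simulated data. The number of rats limits the precision. The p-values set each group difference against the spread between rats of a group. Nothing labels the origin of the rats beyond their group, so a shared origin could not be accounted for.

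The genes named by rule were the 5 highest and lowest of each subunit by their brightest probe, members whose probes differed in sign, members untested, 10 fixed by role, and the 2 with the smallest p of each other list. Outside this rule, values were also given for Mrpl17, Mrpl46, Mrpl47, Mrpl54, Mrps11, Tfam and the dimmer Mrpl40 probe. The same holds for further probes of Trub2 and Nrf1 and for neighbours of members. Counts over named probes use the rule alone. Members and lists were chosen with earlier results of these data known. Motifs were searched with Python 3.11.15 and pandas 2.3.3, and plots drawn with matplotlib 3.10.9 and numpy 2.4.6.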

Additional observations from a re-analysis of the deposited data

Results flagged for a closer look

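Of 64 groups of rats tested among the named probes and subunit means, 6 held a rat far from the others (Dixon's test, 9.375%). The rate of about 1 in 20 that chance gives is no reference for this share. Many of the named probes were chosen by their differences in the same rats, and the groups share those rats. At Mrpl18 WT rat 1 measured 3.12 and the other WT rats 2.48 to 2.55. At Mrpl55 WT rat 6 measured 2.97 against 2.69 to 2.72. At Mrpl43 ADBR3 rat 6 measured -0.54 against -3.62 to -3.23. The same rat was lowest at Mrps33, at 2.14 against 2.35 to 2.44, and at Mrps9, at 1.38 against 1.51 to 1.54. At the brightest probe of Mrpl10 ADBR3 rat 3 measured 4.87 against 5.10 to 5.16.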

How the results depend on the processing

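Under all 25 alternatives 0 members passed the threshold, with smallest adjusted p values of 0.271 (limma, without WT rat 1) to 0.993 (with slide as a block). Few slides held both groups, which limits the fit with slide as a block. The count over all probes, 1 in the main comparison, was 2 with normexp and quantile normalization, 6 with a trended and robust variance model, 0 with slide as a block and 0 to 14 when each rat was left out in turn, 14 without ADBR3 rat 3, 2 without WT rat 1 or ADBR3 rat 5 and 0 without WT rat 3, 4 or 6 or ADBR3 rat 6 or 7. With median scaling the subunit medians became 0.0471 (large) and 0.0307 (small), with 59 members higher and 20 lower. Without a filter on dim probes the medians minus that of all probes were 0.0782 (large) and 0.0563 (small), where all probes include those near background.

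The labels name no pairs of rats, and heart numbers were not used as pairs in the main comparison. Deviations of same-numbered rats correlated at 0.115, 0.035 and 0.116. Differently numbered rats were not compared, so these values cannot decide whether rats were paired. With rats 1, 3 and 6 of each group, with and without the heart number as a replicate block, 0 probes passed, 24 members were higher, the large subunit median was -0.0239 and its value minus that of all probes -0.0161. Leaving out a rat moved the large median between -0.0119 and 0.0183 and the small one between -0.0179 and 0.00473. Among the named probes 14 changed sign under at least 1 alternative and 16 under none, Mrpl18, Mrps7 and Mrps36 among the latter. Taking WT rat 1 from heart 1 alone was chosen after seeing the data. The causes were not tested.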
